A study of Mus musculus with 13 samples.

Results

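The axon guidance ligands and receptors of mouse were followed across 13 bulk RNA-seq libraries of Ret-positive dorsal root ganglion (DRG) cells. Members were taken by a rule on gene names, which holds no measured value but was set with earlier results of these data known. Ligands were protein-coding semaphorins of classes 3 to 7, ephrins, Slits, netrins and netrin-Gs. Receptors were plexins, neuropilins, Eph receptors, Robos, Unc5a to Unc5d and Dcc, also protein-coding. This gave 70 of the 41388 genes in the files, 36 ligands and 34 receptors. All mice were adults of 3 months on a C57BL/6 background, with the genotype given as Tg(Ret-EGFP)SJ, and are described as heterozygotes with enhanced green fluorescent protein (EGFP) placed in the Ret locus. Every group therefore carries the EGFP allele, and cells enter a library because they fluoresce, whatever their type. The groups were female L345 (lumbar ganglia L3, L4 and L5, 3 libraries), female L6S1 (ganglia L6 and S1, 3 libraries), male L345 (3 libraries) and male L6S1 (4 libraries). Each library was a pool of 12 to 42 ganglia from 2 to 9 mice. Libraries carry letters, A, B and C in the first 3 groups and A, D, E and F in male L6S1, and values below follow that order. The labels do not say whether 1 mouse gave ganglia to both levels, so p-values measure the spread between pools.

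Axon guidance molecules are secreted or membrane-bound cues and their cell-surface receptors, which steer growing axons by attraction or repulsion. Semaphorins signal through plexins, with neuropilins as co-receptors for most of the secreted class 3, ephrins bind Eph receptors on neighbouring cells, Slits bind Robos, and netrins bind Dcc and Unc5 receptors. In DRG these systems are known for shaping the paths of sensory axons to skin, viscera and spinal cord in the embryo, and many of their genes stay active in adult sensory neurons.

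Total counts ran from 13030096 to 27011995 per library. All 8 sensory neuron markers were tested, and Ret itself lay between 87.2 CPM in male L6S1 E and 221 CPM in male L6S1 F. CPM here are the counts of a gene over all gene-assigned reads of the library, with the library totals scaled by the trimmed mean of M values (TMM). Male L6S1 D and E stood apart from the other 11 libraries: genes shorter than 1 kb took 10.8% and 9.90% of their counts, against 3.84% to 5.61% elsewhere. The summed level of 12 glial markers was 9610 CPM in E against 3180 to 4670 CPM in the others. None of the 12 glial markers was called between groups. The 5 sympathetic neuron markers summed to at most 0.796 CPM in any library.

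Of the 70 members, 56 (28 ligands and 28 receptors) passed the filter on low counts and were tested. The 14 others were Epha1, Epha2, Epha6, Ephb1, Robo3, Dcc, Slit3, Sema5b, Sema6b, Efna4, Efnb3, Ntn1, Ntn4 and Ntng2. Robo3, a Robo of commissural axons, had under 3 counts in every library and was not detected at this depth. To compare genes, levels are given as CPM per kilobase of the deposited gene length, with the median over 13 libraries. On that scale 24 members (12 ligands and 12 receptors) had a median of at least 1, and 5 had one of at least 10: Efna1, Plxnc1, Efna5, Nrp1 and Sema4d. For 20 members the median was under 0.1. Among all genes of the files, 2.89% had a median at or above that of Efna1.

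**Figure D1:**
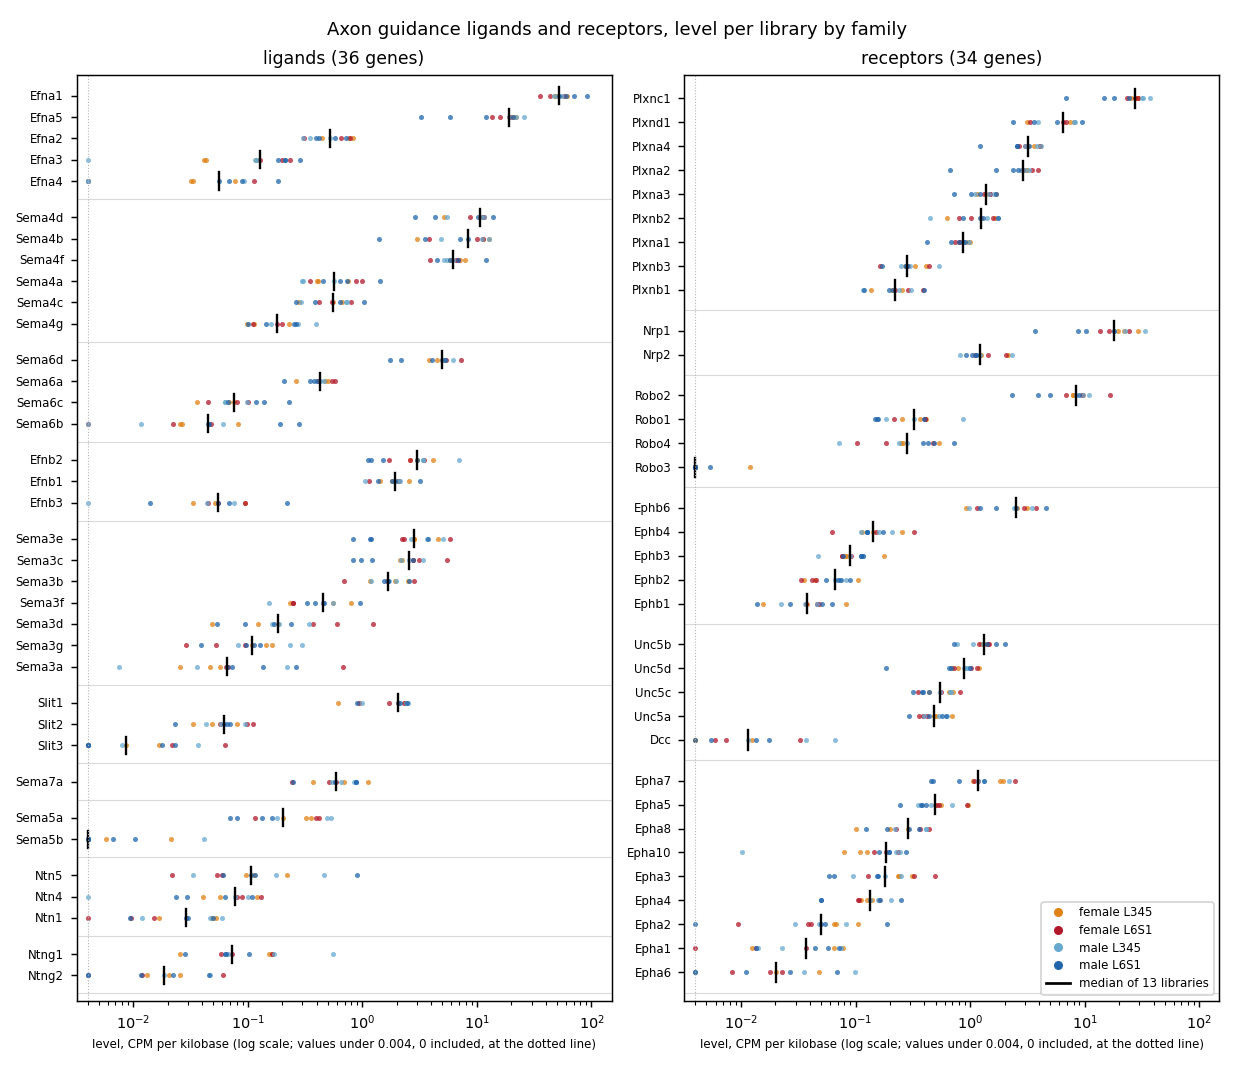
Level of each of the 70 members in CPM per kilobase on a log axis, ligands on the left and receptors on the right, grouped by family. Each point is 1 library, coloured by group, and the bar is the median of 13 libraries. Medians run from 51.8 for Efna1 to 0 for Robo3 and Sema5b, and most families hold 1 or 2 members far above the rest.

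The ephrin-A ligands, which are anchored to the membrane by a lipid, held the highest summed level of any family, with a median of 72.1 CPM per kilobase (range 55.8 to 98.6). Efna1 made up 72.1% of that sum (64.2% to 93.3%). Its own level was 51.8 CPM per kilobase (35.8 to 92.0), against 19.0 (3.26 to 25.7) for Efna5. Efna1 exceeded Efna5 in 13 of 13 libraries, and their ranges did not overlap. Efna2 followed at 0.525 and Efna3 at 0.127 CPM per kilobase. Among the transmembrane ephrin-B ligands, Efnb2 (2.99 CPM per kilobase) and Efnb1 (1.94) were close, with Efnb2 higher in 9 of 13 libraries, while Efnb3 was at 0.0551.

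Eph receptors, the receptor tyrosine kinases for these ligands, were low beside them. The summed level of the 8 ephrins was 13.5 times that of the 14 Eph receptors in the median library, with a range of 10.1 to 27.6. Epha7 led the A class at 1.18 CPM per kilobase, followed by Epha5 at 0.491 and Epha8 at 0.290. Epha7 exceeded Epha5 in 13 of 13 libraries, although their ranges overlapped. In the B class Ephb6, which lacks kinase activity, took 86.1% of the summed level (70.3% to 94.5%). It stood at 2.50 CPM per kilobase against 0.142 for Ephb4 and 0.0888 for Ephb3, and its range did not overlap that of Ephb4.

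Efna1, Efna3 and Efna4 are neighbours on chromosome 3, with 32756 bases between the first pair and 10424 between the second, on the minus strand of GRCm38. Their medians were 51.8, 0.127 and 0.0557 CPM per kilobase, so the leading ephrin lay beside a pair that was barely detected. The 250 bases before the RefSeq start of Efna1 and of Efna3 are printed to set such neighbours side by side, 5′ to 3′ on the gene's strand, from the RefSeq table for GRCm38.p6, with each CpG in capitals.
Efna1, chr3:89280952-89281201, minus strand: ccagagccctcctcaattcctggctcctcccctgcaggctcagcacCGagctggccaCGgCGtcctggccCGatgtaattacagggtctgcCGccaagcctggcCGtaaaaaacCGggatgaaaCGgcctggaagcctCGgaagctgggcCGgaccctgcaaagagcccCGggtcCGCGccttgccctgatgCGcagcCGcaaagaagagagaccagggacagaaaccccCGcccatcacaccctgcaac
Efna3, chr3:89322940-89323189, minus strand: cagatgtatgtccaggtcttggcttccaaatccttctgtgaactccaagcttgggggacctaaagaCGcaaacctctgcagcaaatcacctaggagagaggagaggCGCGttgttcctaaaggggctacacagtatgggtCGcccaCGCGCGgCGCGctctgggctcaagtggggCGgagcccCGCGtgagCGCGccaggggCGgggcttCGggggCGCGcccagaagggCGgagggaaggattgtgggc
The Efna1 stretch holds 16 CpG and the Efna3 stretch 19, so the count of CpG does not order these neighbours as their levels do. These RefSeq starts lie 191 and 26 bases inside the annotated genes, so the stretches overlap the genes in part. For Sema3a the RefSeq start of the table lies 271370 bases inside the annotated gene. Of the members, 60 had an entry in that table, and their median was 16 CpG, against 6 over all 32851 promoters of the same length. The GC box, spelled GGGCGG and searched on both strands, was found in 43 of the 60, or 71.7%, against 32.7% of all promoters, and its CpG adds to the CpG count. The letters TATAAA were found in 2 of the 60, or 3.33%, against 12.4% of all. Dcc, Efnb3, Ntn1, Plxna1, Plxna4, Sema3b, Sema3f, Sema6a, Slit1 and Unc5d had no entry.

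Class 4 semaphorins, membrane proteins that signal through plexins of several classes, were the highest semaphorins, with a summed level of 29.5 CPM per kilobase (9.62 to 36.6). Sema4d, a ligand of plexin-B1, was at 10.6, Sema4b at 8.33 and Sema4f at 6.16 CPM per kilobase. The ranges of these 3 overlapped, and Sema4d exceeded Sema4b in 10 of 13 libraries. Sema6d led class 6 at 4.99 CPM per kilobase and took 89.8% of its sum, ahead of Sema6a at 0.424 and Sema6c at 0.0761. Sema7a, a lipid-anchored ligand of plexin-C1, was at 0.584, and Sema5a, which carries thrombospondin repeats, at 0.201 CPM per kilobase.

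The secreted class 3 semaphorins summed to 8.36 CPM per kilobase (4.15 to 14.2). Sema3e, a ligand of plexin-D1, and Sema3c, which acts through neuropilins, were level with each other at 2.85 and 2.55, with Sema3e higher in 9 of 13 libraries. Sema3b was at 1.69, Sema3f at 0.452, Sema3d at 0.183, Sema3g at 0.109 and Sema3a, the best known repellent of sensory axons, at 0.0656 CPM per kilobase. Sema3d, Sema3a, Sema3e and Sema3c lie in that order on the plus strand of chromosome 5, with 536465, 422710 and 3317591 bases between neighbours. Sema3d had the smallest p of all members in the comparison of levels within females, so the stretch before its RefSeq start is shown with those of its far more abundant relatives Sema3e and Sema3c, again with CpG in capitals.
Sema3d, chr5:12382916-12383165, plus strand: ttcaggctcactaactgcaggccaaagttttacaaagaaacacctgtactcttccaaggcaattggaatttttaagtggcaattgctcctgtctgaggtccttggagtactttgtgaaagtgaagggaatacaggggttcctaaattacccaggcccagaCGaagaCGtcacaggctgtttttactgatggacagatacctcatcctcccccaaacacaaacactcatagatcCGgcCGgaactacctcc
Sema3e, chr5:14025026-14025275, plus strand: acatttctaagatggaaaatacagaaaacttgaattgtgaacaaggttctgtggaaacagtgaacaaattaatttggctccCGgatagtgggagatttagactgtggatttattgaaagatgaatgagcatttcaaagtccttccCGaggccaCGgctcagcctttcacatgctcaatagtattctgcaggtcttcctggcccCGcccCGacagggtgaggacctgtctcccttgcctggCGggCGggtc
Sema3c, chr5:17574566-17574815, plus strand: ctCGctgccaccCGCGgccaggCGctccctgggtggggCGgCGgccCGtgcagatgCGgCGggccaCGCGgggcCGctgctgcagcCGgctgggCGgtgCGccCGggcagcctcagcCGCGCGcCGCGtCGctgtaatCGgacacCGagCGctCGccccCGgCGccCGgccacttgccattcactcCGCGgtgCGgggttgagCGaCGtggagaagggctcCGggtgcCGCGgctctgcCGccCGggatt
The stretches hold 4, 7 and 39 CpG. That of Sema3c has more CpG than 98.4% of all promoters in the table and 3 GC boxes, that of Sema3e has 2 GC boxes, and that of Sema3d has none. Sema3c and Sema3e had similar levels with 39 and 7 CpG. The RefSeq start of Sema3c lies 535 bases inside the annotated gene, so its stretch falls wholly within that gene.

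Among the receptors for semaphorins, neuropilin-1 was far ahead of neuropilin-2. Nrp1 was at 18.0 CPM per kilobase (3.72 to 33.9) and Nrp2 at 1.22 (0.810 to 2.34). Within a library Nrp1 was 13.5 times Nrp2 in the median, from 4.01 to 22.1 times. Of the 9 plexins, Plxnc1 took 61.3% of the summed level (47.9% to 69.6%), at 27.7 CPM per kilobase, and exceeded its ligand Sema7a by a median of 42.7 times (16.8 to 121). Plxnd1 followed at 6.51 and Plxna4, a receptor of class 3 and 6 semaphorins, at 3.20 CPM per kilobase. Plxnd1 was higher than its ligand Sema3e in 10 of 13 libraries. Plxnb1, the classical receptor of Sema4d, was the lowest plexin at 0.222 CPM per kilobase.

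In the Slit and Robo pair of families 1 member of each prevailed. Robo2 held 92.1% of the Robo sum (80.0% to 96.8%) at 8.36 CPM per kilobase, against 0.322 for Robo1 and 0.284 for Robo4, a Robo of vessels. Robo2 was 25.1 times Robo1 in the median library, and their ranges did not overlap. The order of Robo1 and Robo4 was not settled, with Robo1 higher in 6 of 13 libraries. Slit1 held 96.6% of the Slit sum at 2.06 CPM per kilobase, against 0.0620 for Slit2 and 0.00874 for Slit3. Robo2 exceeded Slit1 in 13 of 13 libraries, by a median of 4.13 times.

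For the netrin system the receptors of the Unc5 family, which mediate repulsion, were present with little ligand. Unc5b was at 1.32, Unc5d at 0.884 and Unc5c at 0.550 CPM per kilobase, whereas Dcc, the receptor for attraction, was at 0.0115, with 3 or more counts in 5 of 13 libraries. Ntn1, the founding netrin, was at 0.0290, Ntn4 at 0.0780 and Ntn5 at 0.106 CPM per kilobase. For Ntn5, 23.4% of the exon bases lie on the opposite strand of Sec1, and for Efna3 14.1% lie opposite Gm15998, which held 218 counts in all libraries. As strand handling is not given, counts of both members are uncertain. Ntng1, a membrane-anchored netrin that binds Lrrc4c, was at 0.0730 and Ntng2 at 0.0186 CPM per kilobase.

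The first comparison asked which guidance genes differ between L6S1 ganglia, which supply pelvic organs and hindlimb, and L345 ganglia, which supply mainly the hindlimb. Averaged over the sexes, no member was called by edgeR at an adjusted p under 0.05, against 0.448% of the 15406 genes tested. None was called by limma voom or DESeq2 either, with 10 of 56 and 11 of 70 members at an unadjusted p under 0.05. At that level were 1258 of 15406 and 1701 of 26884 genes. At an unadjusted p under 0.05 there were 11 of 56 members, 4 higher and 7 lower in L6S1, where 8.39% of all genes reached that level. Fold changes were below 0 for 37 of 56 members (16 of 28 ligands and 21 of 28 receptors), or 66.1%, against 48.3% of all tested genes. The median log2 fold change was -0.18 for the members and 0.02 for all genes. With the replicate letter as a block, 9 members were higher and 4 lower at an unadjusted p under 0.05, where 1519 of 15406 genes reached that level. Fold changes of the members in that fit were below 0 for 31 of 56, and their median was -0.05, against 0.004 for all genes. That fit holds a level effect shared by the sexes, not their equal average. It comes from the A, B and C pairs of females and the A pair of males. Male L345 B and C and male L6S1 D, E and F have no partner of their letter and do not inform it.

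Efnb2 (ENSMUSG00000001300, chr8:8617434-8661242 of GRCm38, minus strand), a transmembrane ephrin, had the smallest p. It was at 17.8, 11.2 and 12.9 CPM in female L345, 14.9, 11.4 and 7.39 in female L6S1, 30.0, 14.8 and 14.6 in male L345, and 13, 6.60, 5.15 and 4.81 in male L6S1. The female groups overlapped, the male groups did not, and 4 of 7 L6S1 libraries lay below every L345 library. The averaged log2 fold change was -0.87 (SE 0.28, adjusted p = 0.374).

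Nrp1 (ENSMUSG00000025810, chr8:128358604-128503363, plus strand), the neuropilin that binds Sema3a, was at 172, 131 and 116 CPM in female L345, 145, 95.6 and 80.1 in female L6S1, 200, 134 and 106 in male L345, and 106, 51.3, 22.0 and 60.8 in male L6S1. In females the groups overlapped, in males only library A reached the L345 range, and 5 of 7 L6S1 libraries were below every L345 library. The averaged log2 fold change was -0.83 (SE 0.30, adjusted p = 0.459). A further edgeR fit took the letter as a block and corrected for gene length and GC content in each library. There Nrp1 was the only member called, at -0.53 (SE 0.10, adjusted p = 0.0267), where 1.09% of genes were called. The level effect of that fit comes from the A, B and C pairs of females and the A pair of males. Male L6S1 D, E and F have no partner of their letter and do not inform it.

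Plxnc1 (ENSMUSG00000074785, chr10:94790866-94944835, minus strand), the highest plexin, was at 198, 231 and 224 CPM in female L345, 228, 217 and 183 in female L6S1, 251, 247 and 291 in male L345, and 192, 117, 54.3 and 142 in male L6S1. The female groups overlapped, while all 4 male L6S1 libraries were below all male L345 libraries. Its averaged log2 fold change was -0.56 (SE 0.23, adjusted p = 0.557). Efna5, an ephrin-A with known roles in repelling axons, was at 82.9, 88.1 and 76.8 CPM in female L345, 78.7, 64.5 and 54.4 in female L6S1, 104, 88.9 and 76.2 in male L345, and 84.0, 23.7, 13.2 and 48.6 in male L6S1. Male L6S1 A lay inside the male L345 range and D, E and F well below it. Its averaged log2 fold change was -0.70 (SE 0.32, adjusted p = 0.583).

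The other 8 of the 12 members with the smallest p were mostly low. Sema3g was at -1.15 (SE 0.42), Ntng1 at -1.09 (SE 0.51), Sema5a at -0.88 (SE 0.35) and Unc5c at -0.39 (SE 0.22) in log2 fold change. Sema3a was at 1.69 (SE 0.70), Efna3 at 1.38 (SE 0.48), Sema3d at 0.97 (SE 0.41) and Sema4a at 0.78 (SE 0.33). Their adjusted p ran from 0.446 for Efna3 to 0.612 for Unc5c. Efna3, another ephrin-A, was at 0.106, 0.101 and 0.287 CPM in female L345, 0.309, 0.481 and 0.576 in female L6S1, 0, 0.279 and 0.292 in male L345, and 0.445, 0.518, 0.702 and 0.510 in male L6S1. All 7 L6S1 libraries lay above all 6 L345 libraries, at no more than 14 counts in any of them. Ntng1 was at 0.212, 1.27 and 1.36 CPM in female L345, 0.485, 0.602 and 1.34 in female L6S1, 4.54, 0.559 and 1.41 in male L345, and 0.534, 0.518, 0.234 and 0.838 in male L6S1. Male L345 A stood far above the rest, and without it the averaged log2 fold change of Ntng1 was -0.54. Without female L6S1 A that of Sema3a was 0.67, and without male L345 A it was 2.60.

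**Figure D2:**
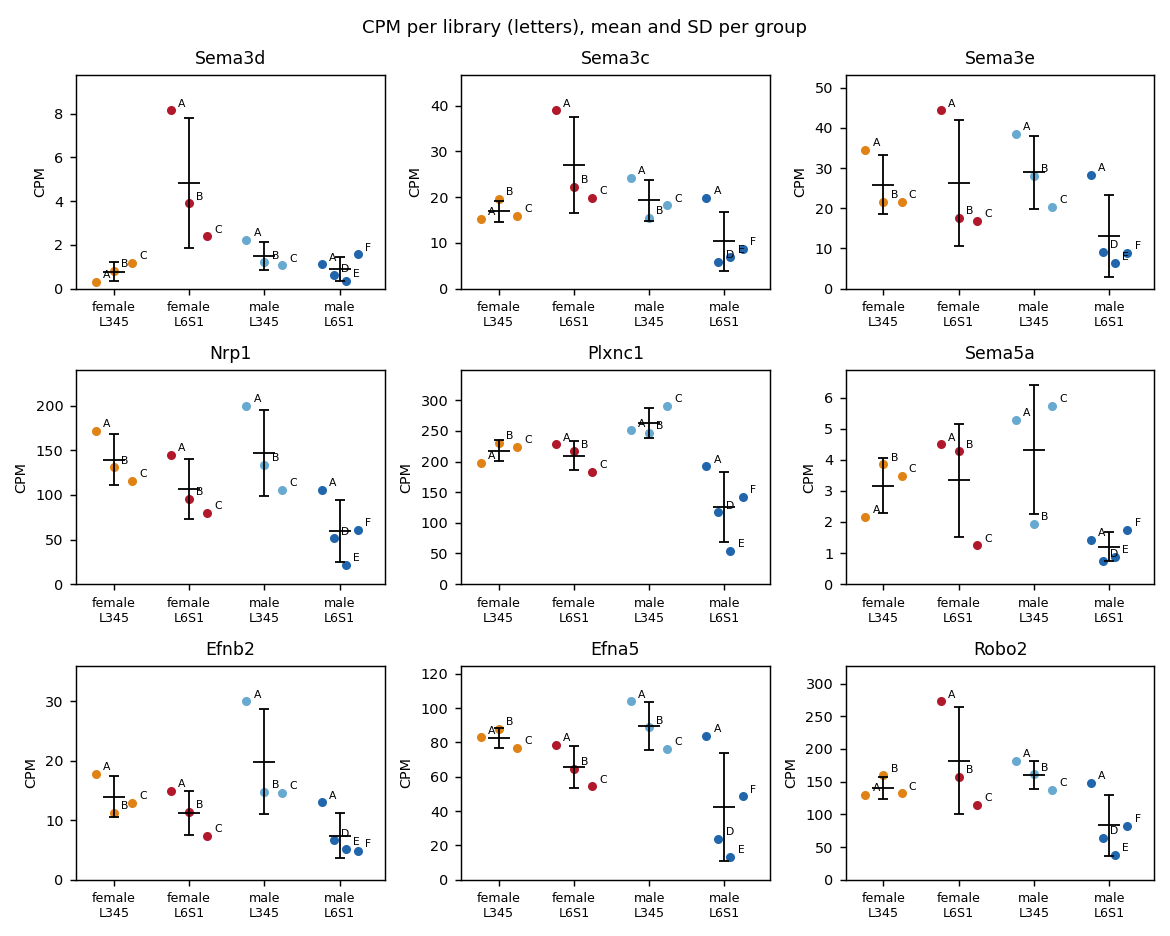
CPM per library for 9 members, 1 panel a gene, with groups on the x axis; points are libraries with their letters, bars the mean and SD. Sema3d is high in the 3 female L6S1 libraries (2.40 to 8.16 CPM), and Nrp1, Plxnc1, Efnb2, Efna5 and Robo2 are lowest in male L6S1 D, E and F.

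Within females no member was called by edgeR, against 0.0195% of genes, and 2 members reached an unadjusted p under 0.05, Sema3d and Sema3a, where 2.25% of genes did. Sema3d (ENSMUSG00000040254, chr5:12383385-12588948, plus strand), a secreted semaphorin that binds neuropilins, was at 0.318, 0.811 and 1.19 CPM in female L345 and at 8.16, 3.91 and 2.40 CPM in female L6S1. Every L6S1 library was above every L345 library, and A was the lowest of its group in L345 and the highest in L6S1. The male libraries did not repeat this order, with 2.23, 1.21 and 1.07 CPM in L345 and 1.11, 0.613, 0.351 and 1.57 in L6S1. The log2 fold change within females came to 2.62 (SE 0.60, adjusted p = 0.254). DESeq2 called Sema3d at 2.65 (SE 0.61, adjusted p = 0.00909), where it called 0.175% of genes, and edgeR without the filter on low counts at 2.61 (SE 0.53, adjusted p = 0.00801), where it called 0.126%. With limma voom it was not called. Without female L6S1 A the fold change was 2.00 in edgeR.

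Sema3a was at 0.371, 0.304 and 0.164 CPM in female L345 and 4.37, 0.421 and 0.432 CPM in female L6S1. Library A of L6S1 was far above the rest, and B and C were just above the L345 libraries. Its log2 fold change stood at 2.65 (SE 1.03, adjusted p = 1.00), and 0.62 without female L6S1 A. The other members with the smallest p in females were Efna3 at 1.38 (SE 0.71), Sema3g at -1.21 (SE 0.63) and Sema3c at 0.67 (SE 0.41). Beside these results, the 6 fibroblast markers, all of them tested and none called, summed to 230, 114 and 110 CPM in female L345 and 440, 204 and 195 in female L6S1. Female L6S1 A was highest in that sum as it was in Sema3d, Sema3a and Sema3c. None of the 6 was at 0, and most of the sum was Dcn (427 CPM in that library). Pdgfra was also highest of its group in female L6S1 A, while Lum, Col1a1, Col1a2 and Col3a1 were lowest there. The 11 endothelial and mural markers, also without a call, had their highest sums in the A libraries of both female groups, at 472 and 516 CPM against 281 to 307 in the others. Most of these sums was Rgs5, at 422 and 467 CPM. Rgs5 and Emcn were highest in A in both female groups, while Cldn5, Tie1, Egfl7 and Pdgfrb were lowest in A in both. The rest held neither place in both groups. Male L6S1 E had the highest fibroblast sum of all libraries, 587 CPM, of which Dcn made 570 CPM, with Sema3d at 0.351 CPM. Lum (7.54 CPM) was likewise highest in E, while Col1a2 (3.51 CPM) was lowest there of all libraries. The part of fibroblasts, endothelial and mural cells in the result was not tested. In bulk RNA, fewer cells of a type and less RNA per cell cannot be told apart.

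Within males no member was called, against 0.221% of genes. At an unadjusted p under 0.05 there were 16 of 56 members, 2 higher (Robo4 and Sema4a) and 14 lower in L6S1, where 25.3% of all genes reached that level. Fold changes were below 0 for 38 members, with a median of -0.36 against 0.04 for all genes. The 14 held receptors and ligands alike: Nrp1, Plxnc1, Plxna2, Epha7, Robo1, Robo2 and Unc5c, and Sema3c, Sema3e, Sema5a, Sema6d, Efnb2, Efna5 and Ntng1. The smallest p belonged to Sema5a (ENSMUSG00000022231, chr15:32244810-32696341, plus strand), at 5.28, 1.95 and 5.74 CPM in male L345 and 1.42, 0.754, 0.877 and 1.75 in male L6S1. All 4 L6S1 libraries were lower than all 3 L345 libraries, and the difference in log2 was -1.82 (SE 0.48, adjusted p = 0.137). Efnb2 was at -1.42 (SE 0.38), Plxnc1 at -1.06 (SE 0.32) and Nrp1 at -1.29 (SE 0.40), each at the same adjusted p of 0.137, and Ntng1 at -1.96 (SE 0.69, adjusted p = 0.142), or -0.86 without male L345 A. DESeq2 called Sema5a, Efnb2, Plxnc1 and Nrp1, all lower, where 3.59% of genes were called (965 genes, 223 of them lower), and edgeR without the low-count filter called Sema5a and Efnb2, both lower, where 0.981% were (264 genes, 35 of them lower). With limma voom no member was called and 15 had an unadjusted p under 0.05, where 3761 of 15406 genes did.

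Single libraries moved these counts. Without male L6S1 D, 6 of 56 members had an unadjusted p under 0.05 in place of 16, with 2593 of 15242 genes in place of 3904 of 15406. Without male L345 A there were 6 of 58 members, with 2158 of 15783 genes. Without male L6S1 E there were 11 of 55, with 2449 of 15230 genes, and without male L6S1 A 18 of 56, with 5714 of 15294. With the replicate letter as a block, fold changes were below 0 for 28 members, and the median was -0.09. In that fit male L6S1 is compared with male L345 through library A only, as no male L345 library has the letters D, E or F. Robo2 (ENSMUSG00000052516, chr16:73891839-74411825, minus strand) was at 182, 161 and 138 CPM in male L345 and 148, 64.5, 38.0 and 82.0 CPM in male L6S1. Sema3e was at 38.5, 28.0 and 20.3 CPM in male L345 and 28.4, 9.10, 6.26 and 8.85 in male L6S1. Sema3c was at 24.2, 15.5 and 18.2 CPM in male L345 and 19.9, 5.89, 7.02 and 8.64 in male L6S1. In all 3 genes library A sat within the L345 range, and D, E and F lay below it. Without A, 11 members were called, all lower, where 9.91% of all genes were called lower and 20.5% in either direction. They were Nrp1 (-1.71, SE 0.38), Plxnc1 (-1.33, SE 0.30), Robo2 (-1.38, SE 0.34), Robo1 (-1.57, SE 0.50), Epha7 (-1.43, SE 0.39), Efna5 (-1.65, SE 0.37), Efnb2 (-1.84, SE 0.36), Sema3c (-1.42, SE 0.31), Sema3e (-1.84, SE 0.39), Sema5a (-1.91, SE 0.54) and Sema6d (-1.04, SE 0.31), with adjusted p between 0.0128 and 0.0394. Libraries D, E and F were each below all male L345 libraries in these 11 members. As the 11 were picked by that same comparison, this order adds no separate evidence. The glial sum stood apart in E and lay within the range of the other libraries in D and F (4470 and 3730 CPM). Other marker sums stood apart in some of these libraries. The 8 sensory neuron markers, none called, summed to 12600, 16200, 12800 and 16300 CPM in male L6S1, against 9360 to 12300 CPM elsewhere. Tubb3, Uchl1 and Prph were higher in D, E and F than in every other library, and Snap25 was lower. Pou4f1 was at 412 and 264 CPM in D and E, against 635 to 1020 CPM in the others. Rbfox3, Avil and Isl1 showed no such order. The 8 immune markers, of which 2 were tested and C1qb was called, summed to 9.85, 14.0 and 8.13 CPM in D, E and F, against 1.70 to 5.65 CPM in the other libraries. Most of each of these sums was C1qb, at 7.02, 10.7 and 6.89 CPM. Aif1 was at 1.56, 1.87 and 0.619 CPM and Ptprc at 0.236, 0 and 0 CPM, with C1qa and C1qc at or near 0. The 4 skeletal muscle markers, 2 of them tested and none called, summed to 17.0 and 15.7 CPM in D and E against 3.75 to 7.11 CPM elsewhere. The part of these cells in the result was not tested. Without D and E no member was called in males, and the members' median was -0.18.

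Gene length moved with the male result. The tested members were long, with a median of 6459 bases against 3569 over all tested genes. In males the median log2 fold change over all tested genes was 0.63 in the shortest of 4 equal bins of gene length and -0.42 in the longest, which holds 35 of the 56 tested members. The members of the longest bin had a median of -0.49. In females the same medians over all genes were -0.10 and 0.06. With a correction for length and GC content in each library, chosen after seeing the data, the members' median in males was -0.18 in place of -0.36 and that of the averaged comparison -0.08 in place of -0.18.

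**Figure D3:**
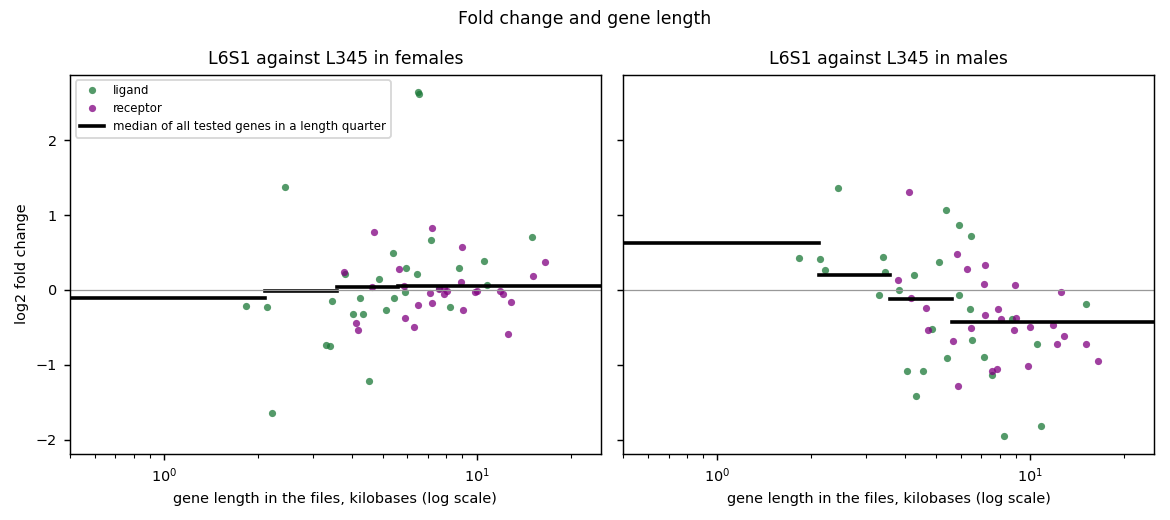
Log2 fold change of L6S1 against L345 in females (left) and males (right) against gene length in kilobases on a log axis. Points are the 56 tested members and black bars the median of all tested genes in each of 4 bins of length. In males the bars step down from 0.63 to -0.42, and 35 members lie in the longest bin.

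The level effect was compared between the sexes by an interaction term. No member was called, as with 0.0% of all genes, by edgeR, limma voom or DESeq2. At an unadjusted p under 0.05 there were 7 members, 1 higher and 6 lower in males, where 11.7% of genes reached that level. Sema3d had the smallest p, with a difference of -3.29 in log2 (SE 0.81, adjusted p = 0.409): all 3 female L6S1 libraries were above female L345, while the male groups overlapped. In order of p, Sema3c was next at -1.57 (SE 0.56), followed by Sema5a at -1.89 (SE 0.69), Robo2 at -1.32 (SE 0.56) and Sema6d at -1.12 (SE 0.49), each also at an adjusted p of 0.409. The median over the members was -0.45.

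**Figure D4:**
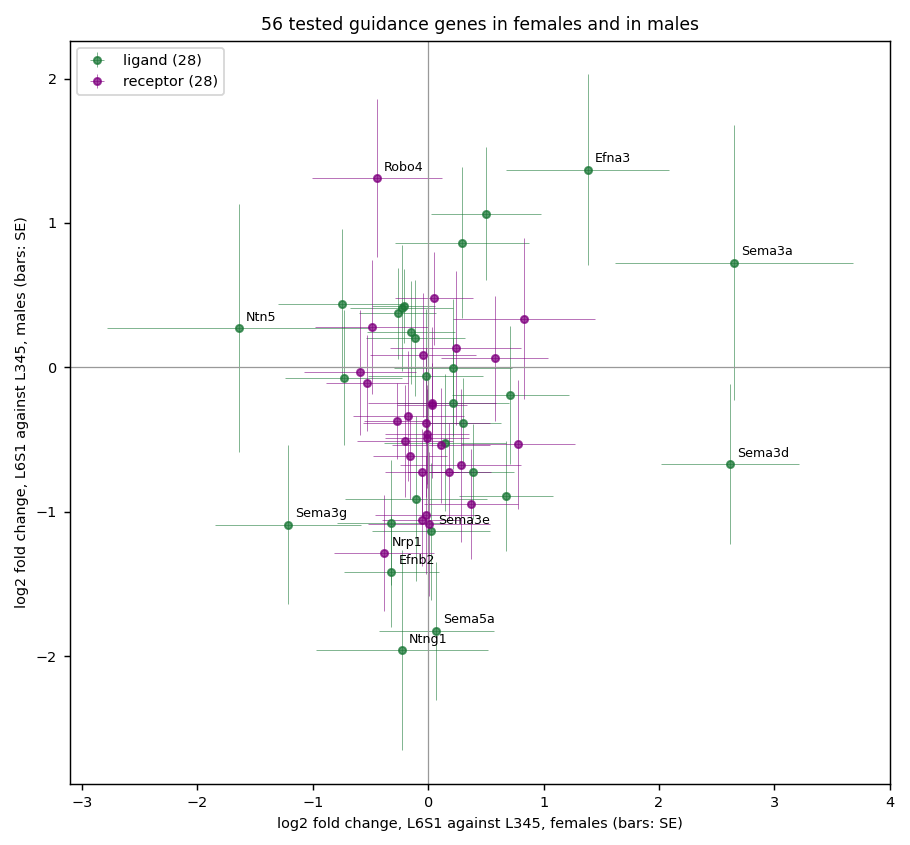
Log2 fold change of L6S1 against L345 in females (x axis) and in males (y axis) for the 56 tested members, ligands green and receptors purple, with SE bars. The male and female comparisons share no library. Sema3d lies at 2.62 in females and below 0 in males, and Sema5a, Efnb2 and Nrp1 lie at 0.07, -0.32 and -0.38 in females and below -1 in males.

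Males and females were also compared. Sex goes with the set of samples deposited together and with the submitters' processing notes, which name more tools for the female libraries, so that sex and set cannot be told apart, and no within-set value exists. Male L6S1 E and F were moreover deposited apart from the other male libraries, by accession, with labels worded in another way, so male L6S1 spans 2 such sets. Without E and F no member was called in any comparison, and the members' median for the level within males was -0.34. Averaged over the levels, no member was called, against 0.0779% of genes, and 4 reached an unadjusted p under 0.05 (1 higher and 3 lower in males), where 6.1% of genes did. DESeq2 and limma voom called none, with 4 and 3 members at that level, where 1266 of 26884 and 790 of 15406 genes were. Epha3 was at 1.75, 1.32 and 1.36 CPM in female L345, 2.78, 0.722 and 1.82 in female L6S1, 1.41, 1.02 and 0.535 in male L345, and 0.890, 0.330, 0.877 and 0.364 in male L6S1. The groups of the sexes overlapped, and males minus females came to -1.07 in log2 (SE 0.37, adjusted p = 0.665). Epha5 was at -0.67 (SE 0.25), Ntn5 at 1.62 (SE 0.71), Sema3c at -0.60 (SE 0.28) and Epha7 at -0.54 (SE 0.30), all at that same adjusted p. Ntn5 was at 1.99 CPM in male L6S1 E and 1.02 in male L345 B, against 0.0480 to 0.493 in the other libraries, and its fold change was 0.80 without male L6S1 D and E. At L345 no member was called, against 0.0325% of genes, and no member had an unadjusted p under 0.05, where 0.863% of genes did. DESeq2 and limma voom called none there, with 1 and 0 members at that level, where 207 of 26884 and 117 of 15406 genes were. The 5 smallest p there belonged to Efna2 (-0.78, SE 0.46), Sema4g (0.88, SE 0.52), Epha8 (0.83, SE 0.49), Ntng1 (1.15, SE 0.73) and Sema3d (0.91, SE 0.61). Ntng1 was at 0.0477 without male L345 A and at 0.67 without female L345 A.

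At L6S1, which uses the same male libraries as the level comparison, no member was called, against 0.0844% of genes, and 12 members (2 higher and 10 lower in males) had an unadjusted p under 0.05, where 26.0% of genes did. Sema3d was at -2.37 (SE 0.53), Sema3c at -1.38 (SE 0.38), Epha3 at -1.55 (SE 0.51), Sema5a at -1.45 (SE 0.48) and Robo2 at -1.12 (SE 0.38), each at an adjusted p of 0.130. DESeq2 called Sema3c, Sema5a and Robo2 lower, where 4.76% of genes were called (1281 genes, 516 of them lower), and edgeR without the low-count filter called Sema3d and Sema3c lower, where 0.732% were (197 genes, 102 of them lower). Without female L6S1 A, 4 members (1 higher and 3 lower) had an unadjusted p under 0.05 in place of 12, and 1521 genes in place of 3998. Without male L6S1 A, 10 members were called, all lower in males, where 10.4% of genes were called lower and 20.6% in either direction.

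Other members came up in the sex comparison once the replicate letter was a block. Averaged over the levels 4 were called, where 2.4% of genes were: Slit1 (0.86, SE 0.18), Sema4b (0.59, SE 0.14) and Plxnd1 (0.50, SE 0.12) higher and Epha5 (-0.85, SE 0.19) lower in males. At L6S1 6 were called, where 4.34% were: Slit1, Sema4b, Plxnd1 and Ephb6 higher and Epha5 and Nrp2 lower. In that fit male L6S1 enters through library A only, since no female library has the letters D, E or F. None of these calls remained with the length and GC correction added to the block.

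GC content moved with the block results: the A libraries were low in GC-rich members in the first 3 groups. Slit1 was at 3.61, 12.1 and 13.9 CPM in female L345, 5.51, 13.6 and 10.1 in female L6S1, 5.88, 14.8 and 14.3 in male L345, and 12.7, 5.33, 12.2 and 14.6 in male L6S1. Sema4b was at 16.3, 69.3 and 61.3 CPM in female L345, 20.7, 61.6 and 54.3 in female L6S1, 26.3, 60.6 and 69.5 in male L345, and 38.8, 19.3, 7.54 and 45.3 in male L6S1. In the first 3 groups A was the lowest library for both genes, and in male L6S1 it was not. The 70 members had a median exon GC content of 56% against 49.4% over tested genes. In log2 of CPM plus 0.5, A minus the mean of the other libraries of its group had a median of -0.38, -0.39, -0.52 and -0.02 over the 35 members of at least 50% GC, in the order of groups used above. Over the 21 members under 50% GC it was 0.01, 0.73, 0.56 and 0.98. Across the 56 members the Spearman correlation of a library's deviation with GC was -0.49, -0.73, -0.70 and -0.57 in the A libraries. The members of a panel share library and depth, and the part of GC content in the sex result was not tested beyond the offsets.

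**Figure D5:**
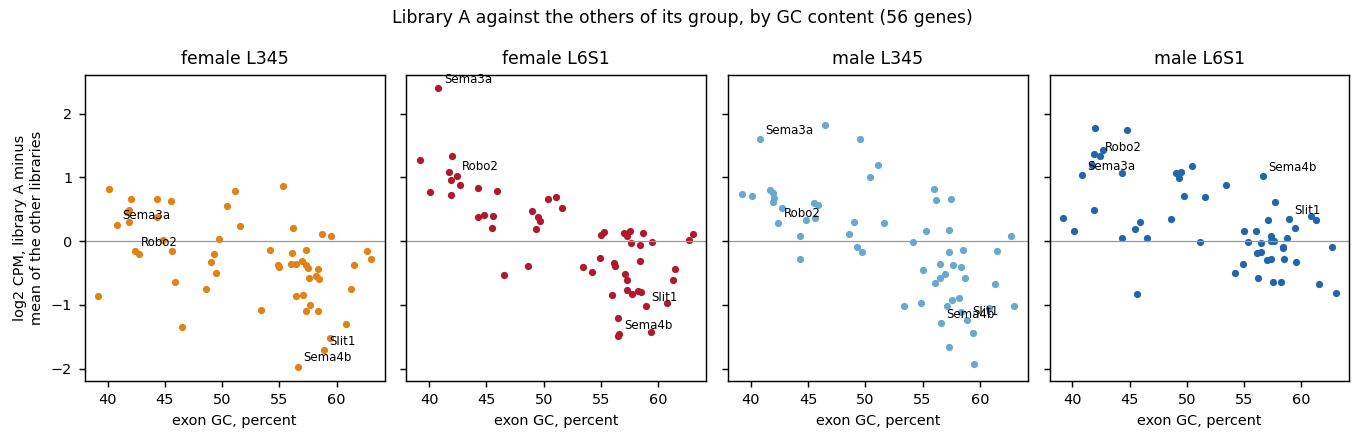
Difference in log2 (CPM plus 0.5) between library A and the mean of the other libraries of its group, against the GC content of each gene's exons, for the 56 tested members in 4 panels. The GC-rich Slit1 and Sema4b are low in A in the first 3 panels, and members under 50% GC lie mostly above 0 in all but female L345.

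Guidance genes outside the member rule gave similar counts. Of 24 further ligands, receptors and co-receptors, 23 were tested and none was called in any comparison. Averaged over the sexes none was higher and 4 were lower in L6S1 at an unadjusted p under 0.05, where 8.39% of all genes reached that level. The median of these further genes was -0.23. The smallest p belonged to Flrt2, a ligand of Unc5 receptors (-0.49, SE 0.18), and Itga1, an integrin chain (-0.85, SE 0.37). In males Flrt2 was at -0.90 (SE 0.25) and Neo1, a receptor of netrins and repulsive guidance molecules, at -0.68 (SE 0.24), and in females the adhesion molecule Nrcam was at 0.95 (SE 0.43). Met, the receptor of hepatocyte growth factor, was at -1.74 in males against females (SE 0.46, adjusted p = 0.665). Lrrc4c, the ligand of Ntng1, was at -1.09 (SE 0.49) in the interaction.

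Of 50 intracellular effectors of guidance receptors all were tested and none was called. Averaged over the sexes 2 were higher and 6 lower in L6S1 at an unadjusted p under 0.05, where 8.39% of all genes reached that level. The median of the effectors was -0.22. Chn2, a chimaerin that acts on Rac, was at -0.59 (SE 0.19) and Trio, a guanine nucleotide exchange factor, at -0.51 (SE 0.17). In males the kinase Abl2 was at -0.96 (SE 0.28) and Dock1, a Rac exchange factor, at -1.07 (SE 0.34), both at an adjusted p of 0.137. Their levels spread widely, from a median of 1860 CPM per kilobase for Dpysl2, a collapsin response mediator, to 0.0763 for Tiam1, a Rac exchange factor.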

How the data were processed

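Ret-EGFP cells sorted from mouse dorsal root ganglia were profiled by bulk RNA-seq in 13 pools, with a SMARTer kit for low RNA input, per the labels' protocols. The authors deposited for each gene a count of reads, unnormalized, and a CPM and an RPKM value. The deposited CPM is the count over the library total, and dividing it by the file's gene length in kilobases gives the deposited RPKM. Both served only as a check. The submitters' processing notes name Subread, featureCounts 1.4.5 and the build GRCm38.p2 for all libraries, and STAR 2.0.4b, Salmon and mm10 for the female ones. As for strand and multi-mapping, settings were not given in the sources used here, so a gene and an antisense partner, or near-identical copies, may share counts. Gene names came from GENCODE M21 (GRCm38), which matched 40254 identifiers. The 1134 unmatched ones held 0.109% of counts. Promoters and their names came from RefSeq on GRCm38.p6.

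Counts were filtered with filterByExpr (15406 genes), scaled by TMM and put to edgeR 4.0.16 (R 4.3.3) quasi-likelihood F-tests, robust option on, with 1 mean per group and Benjamini-Hochberg adjustment over all tested genes. Called means an adjusted p under 0.05. SEs were derived from the fold change and its F statistic. CPM printed here are divided by the library total times its TMM factor, which was 0.796 in male L6S1 E, 0.925 in D and 1.01 to 1.05 in the others. Total counts of 13030096 to 27011995 put 3 counts at 0.111 to 0.230 CPM before that factor, and such a floor covers counting error only. Alternatives were DESeq2 1.42.0, limma 3.58.1 voom, other filters and factors, libraries left out and the replicate letter as a block, and, chosen after seeing the data, length and GC offsets.

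The letters were taken to pair libraries because deviations of libraries with the same letter correlated in every pair, at 0.101 to 0.520 across levels and 0.221 to 0.505 across sexes. Pairs of other letters ranged from -0.556 to 0.252 and from -0.433 to 0.268, so the weakest of the former lay within the range of the latter. This comes from the data, as the labels do not state it.

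Members and lists were chosen with earlier results of these data known. Named were members called in any comparison, the 12 smallest p of the averaged level comparison and the 5 smallest of each other one, the 3 highest members of each family, undetected members, and up to 2 genes with the smallest p of each companion list where none was called. Slit1, Sema4b, Plxnd1, Ephb6 and Nrp2 also stand for calls of the block fit, and Dpysl2 and Tiam1, the ends of their list by level, were added after their values were seen.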

Additional observations from a re-analysis of the deposited data

Results flagged for a closer look

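In the only group of 4 libraries, male L6S1, CPM of the 56 tested members were checked for a library whose gap to its nearest neighbour takes most of the range of the group (Dixon's test at 95%). Chance gives such a gap in about 1 in 20 groups, and 7 were found. Library A stood apart in Sema3e, at 28.4 CPM against 6.26 to 9.10 in the others, in Robo1, at 2.98 against 1.11 to 1.18, and in Ephb3, at 0.490 against 0.702 to 0.729. Library E stood apart in Ntn5, at 1.99 CPM against 0.134 to 0.255, and in Plxnb3, at 1.11 against 1.78 to 1.82. Library D stood apart in Ephb4, at 0.801 CPM against 0.579 to 0.585, and library F in Sema3b, at 11 against 6.55 to 7.19. Ephb4 held 17 counts in D and 10 to 16 in the others, and Ephb3 11 in A and 12 to 20 in the others. Both gaps thus rest on few reads. All genes share these 4 libraries, so the 7 flags are not independent.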

How the results depend on the processing

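Counts are of genes called at an adjusted p under 0.05, first over all genes, in the order averaged level, females, males, interaction, sex averaged, sex at L345 and sex at L6S1, which edgeR gave as 69, 3, 34, 0, 12, 5 and 13. DESeq2 gave 187, 47, 965, 0, 24, 8 and 1281, and no low-count filter gave 144, 34, 264, 1, 19, 8 and 197. The replicate block gave 90, 56, 0, 0, 369, 8 and 669, and the block with length and GC offsets 168, 105, 71, 0, 194, 8 and 206. With the block, the averaged level is an effect shared by the sexes, not their equal average. Offsets alone gave 18 in females and limma voom 11 in females and 17 in males. Without male L6S1 D and E the counts were 23 in females, 19 in males, 7 for sex averaged and 6 at L6S1, and without E and F 37 for the averaged level, 12 in females, 9 in males and 7 for sex at L6S1. Leaving out 1 library gave 28 to 129, 0 to 11, 4 to 3135, 0 to 0, 10 to 14, 5 to 5 and 9 to 3149. The highest counts of the averaged level (129), of males (3135) and of sex at L6S1 (3149) came without male L6S1 A. Males gave 22 without female L345 B, 11 (A), 6 (B) and 4 (C) with 1 of male L345 left out, and 19 (D) and 18 (E) with 1 of male L6S1. The averaged level gave 28 (B) and 37 (C) with 1 of female L345 left out, 44 (A), 29 (B) and 45 (C) with 1 of female L6S1, and 29 (B) and 28 (C) with 1 of male L345. Females gave 0 without female L345 B, 1 without female L6S1 A or B, 5 without male L345 B, and 11 and 8 without male L6S1 E and F. Members called, 0 in the edgeR fit, were 1 in females by DESeq2 and with no filter, 4 and 2 in males, and 3 and 2 for sex at L6S1. With the block they were 4 for sex averaged and 6 at L6S1, and with block and offsets 1 for the averaged level. Leaving out 1 library gave 0 to 11 members in males and 0 to 10 for sex at L6S1, with 11 and 10 without male L6S1 A, and 0 elsewhere. Of 1002 fold changes of 42 named pairs of member and comparison under the alternatives, 1000 kept the direction. The exceptions were Robo2 in the interaction (0.0495) and for sex at L6S1 (0.20), both with the block and offsets, and 23 passed the threshold. The pairs were picked by p-value in the edgeR fit of the same libraries, so the kept directions add no separate evidence.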
